A study of Homo sapiens with 9 samples.

Results

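NFE2L2, which encodes the transcription factor NRF2, and 8 genes of antioxidant and ferroptosis defence (NQO1, HMOX1, GCLC, GCLM, SLC7A11, TXNRD1, SRXN1 and GPX4) were followed in human SKMEL28 melanoma cells. The rows of these 9 genes were taken by symbol from 48162 genes in the deposited tables. The genes themselves were chosen with earlier results of these data known. All 9 were among the 15776 genes with enough reads to test. The symbol SRXN1 stands on 2 of the 10 rows found, and 1 of these rows had no reads. Among the 9 genes, HMOX1 was lower in cells with the p16 hairpin alone and higher again in cells with the ATR hairpin as well, while TXNRD1 was lower with both hairpins than in either of the other groups. Both HMOX1 differences rest on the same libraries of the p16 hairpin alone and are not independent. GCLM was higher in both groups with the p16 hairpin, by a margin whose call depended on the analysis.

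The study asked how the kinase ATR acts in cells that have lost p16, the cell cycle inhibitor encoded by CDKN2A. RNA was sequenced in 9 libraries, 3 from each of 3 groups, and the authors deposited the reads counted on each gene together with FPKM values. All groups were SKMEL28 cells, an established melanoma line, grown in DMEM with 5% FBS, infected with lentiviral short hairpins and selected in puromycin at 1 µg/ml for 3 days. The shCont cells carried a hairpin against GFP, the shp16 cells a hairpin against p16, and the shp16+shATR cells hairpins against both p16 and ATR.

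The labels call the libraries of a group replicates, and nothing in them says that these came from separate cultures or infections. For the mRNA of LSS (lanosterol synthase), the paper reports a single experiment with technical replicates. It does not name the assay there, but sequencing is the only mRNA measurement in its methods. The libraries of a group are therefore most likely technical replicates. The p-values below then measure only the spread between these libraries, and hold no variation between cultures or infections. The sources used here do not say which of the ATR hairpins was sequenced, nor whether shp16 cells received a control virus in place of it. In bulk RNA, fewer cells expressing a gene and less RNA per cell cannot be told apart.

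NRF2 is held in the cytoplasm by KEAP1, which delivers it for degradation. Oxidants and electrophiles act on KEAP1, so that NRF2 accumulates, pairs with a small MAF protein and binds antioxidant response elements near its targets. Much of this control acts on the NRF2 protein and is not visible in the mRNA of NFE2L2. The targets feed a pair of reducing systems, glutathione and thioredoxin. Ferroptosis is a form of cell death driven by iron and by peroxidized lipids, which GPX4 reduces with glutathione made from the cystine that SLC7A11 imports.

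The core of the antioxidant response element can be written as TGACNNNGC, with TGAGNNNGC as a common variant. Both were searched on both strands of windows from 250 bases before to 50 after each annotated start, in sequences from RefSeq on GRCh38.p14. Of the 9 genes, 7 had a window in that table, and HMOX1 and SLC7A11 had none. Of all 35116 windows in the table, 13.3% held the first form, 18.3% the variant and 29.1% either, so a match is common. The stretches of TXNRD1 and GCLM are printed because these genes, with HMOX1, carry the differences described below. Capitals mark the matches, and each stretch reads 5′ to 3′ on the strand of its gene. A match on the opposite strand therefore appears as its reverse complement, ending in GTCA or CTCA. The stretches lie at chr12:104215665-104215794 and chr12:104286819-104286953 (plus strand) and chr1:93909415-93909479 (minus strand).
TXNRD1 start 1: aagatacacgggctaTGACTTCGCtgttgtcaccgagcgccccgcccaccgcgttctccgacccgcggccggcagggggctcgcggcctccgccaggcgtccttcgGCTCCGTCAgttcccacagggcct
TXNRD1 start 2: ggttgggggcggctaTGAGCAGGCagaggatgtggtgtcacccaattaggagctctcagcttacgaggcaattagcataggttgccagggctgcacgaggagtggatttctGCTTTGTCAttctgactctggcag
GCLM start 1: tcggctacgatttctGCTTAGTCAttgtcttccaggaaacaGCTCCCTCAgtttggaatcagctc

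The matches of TXNRD1 begin 99 and 8 bases before its first start, and 198 and 102 bases before the other. Those of GCLM begin 34 and 8 bases before the start. NFE2L2 also had matches, at start 2 of its 2 starts and not at start 1. The end of the start 2 window does not lie in a GENCODE transcript of NFE2L2, so that start is less certain. GCLC, SRXN1 and GPX4 had windows without a match. Counts were made per gene, so they do not show which start of TXNRD1 was used.

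The libraries held 17314662 to 23588174 counts. ATR, the target of its hairpin, was at 83.4 to 93.5 CPM in shp16 (CPM are read counts scaled to library size, here with TMM normalization) and at 39.9 to 41.0 CPM in shp16+shATR (log2 fold change −1.12, edgeR adjusted p = 0.0128). CDKN2A was at 103 to 162 CPM in shCont and at 78.1 to 99.9 CPM in shp16, a difference that did not pass the threshold (log2 fold change −0.48, edgeR adjusted p = 0.0723). The difference was smaller without shCont replicate 1, the library described in the next paragraph: CDKN2A was at −0.26 without it (edgeR adjusted p = 0.0681) and at −0.16 without replicate 1 of both groups (0.0817). It passed the threshold in 3 of 22 alternatives. In shp16+shATR against shCont, CDKN2A was at −0.57 (edgeR adjusted p = 0.0263) and passed in 15 of 21 alternatives. Without shCont replicate 1 that value was −0.35 (edgeR adjusted p = 0.0154). The name shp16 below stands for the hairpin and not for a measured loss of CDKN2A mRNA. The 8 melanocyte markers examined were all present, with summed levels of 13386 to 15002 CPM in shCont, 7769 to 13015 CPM in shp16 and 10941 to 13044 CPM in shp16+shATR. TYRP1 and S100B, 2 of the 8, were called lower in shp16 than in shCont (log2 fold changes −0.43 and −0.68, edgeR adjusted p = 0.0228 and 0.0130). Of the immune markers, PTPRC and CD3E were at 0 in all 9 libraries. Of 4 keratinocyte markers, 3 were called higher in shp16 than in shCont. KRT5 and KRT1 had 0 counts in every shCont library, against 39 to 63 and 42 to 207 in shp16. In shp16+shATR they had 7 to 39 and 26 to 96 counts. KRT10 differed little, at 411 to 730 counts in shCont, 415 to 736 in shp16 and 468 to 772 in shp16+shATR. The summed level of the 4 keratinocyte markers, mostly KRT10, was 20.5 to 32.3 CPM in shCont, 31.1 to 49.8 CPM in shp16 and 30.5 to 41.5 CPM in shp16+shATR. Of 5 fibroblast markers, 4 were tested, with a median log2 fold change of 1.85 in shp16 against shCont, where the smallest edgeR adjusted p was that of COL1A2 (0.0633), and of 2.13 in shp16+shATR against shCont, where DCN and COL1A2 were called higher. Without shCont replicate 1, COL1A1 and COL1A2 were called higher in both comparisons and DCN in neither. COL1A2 had 0 to 7 counts in shCont, 8 to 22 in shp16 and 11 to 19 in shp16+shATR. The summed level of the fibroblast markers, mostly LUM, was 32.6 to 43.0 CPM in shCont, 27.2 to 46.3 CPM in shp16 and 31.1 to 33.2 CPM in shp16+shATR. The part of these 3 marker lists in the results below was not tested.

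shCont replicate 1 stood apart from the other control libraries, and its ratio to them fell with gene length over the genes tested, though less regularly among the 9. Between shCont replicates 2 and 3 the chi-square of the counts was 5.15 per degree of freedom, but between replicate 1 and each of them it was 68.5 and 83.4. The genes tested were divided by length into 4 classes. The median log2 ratio of shCont replicate 1 to its group mates was 0.31 in the shortest class, 0.20 and −0.06 in the next classes and −0.41 in the longest. The short genes GPX4 (1159 bases) and HMOX1 (1822 bases) stood at 1.79 and 1.43 times the mean of the other shCont libraries. SLC7A11, the longest of the 9 at 9645 bases, stood at 0.517 times that mean, GCLM at 0.746 times and TXNRD1 at 0.732 times. Genes of nearly the same length were not displaced alike: NQO1 (2912 bases) stood at 1.32 times, but NFE2L2 (2853 bases) and SRXN1 (2698 bases) at 0.959 and 0.961 times. shp16 replicate 1 was also apart from its mates, at a chi-square of 37.9 and 37.2 per degree of freedom against 1.94, but the 9 genes there stood within 0.926 and 1.39 times their mates. Values against shCont are therefore given with and without shCont replicate 1 for each of the 9 genes. Of the genes named from the pathway lists by adjusted p, 14 were named in shp16 against shCont. Without that library all 14 kept their sign, and the largest change in a log2 fold change was 1.26 times. All 14 also kept their call, in a fit that called 25.9% of all genes tested instead of 14.8%.

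**Figure D1:**
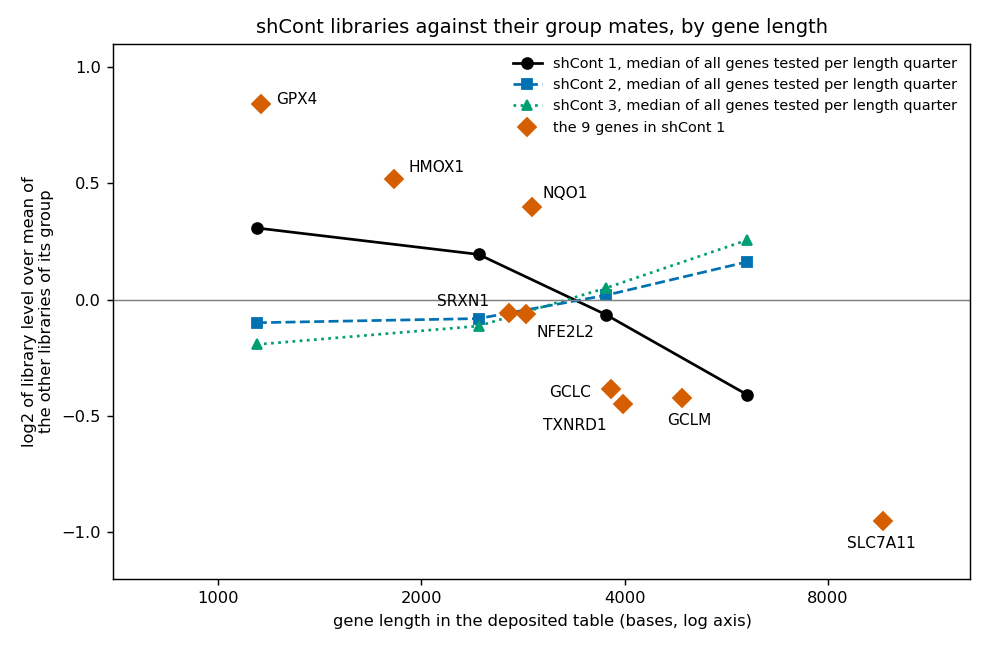
Log2 ratio of each shCont library to the mean of the other shCont libraries (y axis) against gene length in bases (log x axis). Lines join the medians of all genes tested in 4 length classes at the median length of each, and diamonds are the 9 genes in shCont replicate 1, from GPX4 at 1.79 times its mates (plotted as a log2 value) to SLC7A11 at 0.517 times.

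The level of NFE2L2 (ENSG00000116044, chromosome 2 from 178092323 to 178257425 in the deposited coordinates, minus strand) differed little between the groups. It was at 190.1, 188 and 209 CPM in shCont replicates 1 to 3, at 161, 175 and 174 CPM in the shp16 libraries, and at 199, 203 and 195 CPM in shp16+shATR libraries a, b and c. The shp16 libraries were the lowest and did not overlap with either other group, at means of 196, 170.0 and 199 CPM. Overlap of libraries is given here and below as a description, and its share among all genes tested was not counted. At its 5′ end NFE2L2 overlaps AGPS, a gene of the opposite strand with 2731 to 4682 counts, and whether the counting used strand is not stated.

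NQO1 (ENSG00000181019, chromosome 16 from 69740899 to 69760854, minus strand) encodes a quinone reductase and is among the best known NRF2 targets. Its level was 456, 341 and 350.5 CPM in shCont, 357, 310.3 and 306 CPM in shp16, and 358, 338 and 370 CPM in shp16+shATR. The 3 groups overlapped with one another, and shCont replicate 1 was the highest library.

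HMOX1 (ENSG00000100292, chromosome 22 from 35776354 to 35790207, plus strand) encodes heme oxygenase 1, which breaks down heme and releases its iron. It is induced by NRF2 and repressed by BACH1. HMOX1 was at 119.8, 82.5 and 84.8 CPM in shCont, at 61.7, 57.0 and 62.1 CPM in shp16, and at 97.3, 96.7 and 103 CPM in shp16+shATR. All 3 shp16 libraries lay below every library of the other groups, whose ranges overlapped only through shCont replicate 1.

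Glutathione synthesis starts with cystine import and glutamate-cysteine ligase. SLC7A11 (ENSG00000151012, chromosome 4 from 139085251 to 139163503, minus strand), the transport subunit of the cystine-glutamate exchanger, was at 23.0, 43.6 and 45.4 CPM in shCont, 48.8, 47.6 and 46.7 CPM in shp16 and 36.6, 33.3 and 33.8 CPM in shp16+shATR. The shp16+shATR libraries lay below the shp16 libraries and between shCont replicate 1 and its mates. GCLC (ENSG00000001084, chromosome 6 from 53362139 to 53481768, minus strand), the catalytic subunit of the ligase, was at 20.01, 26.9 and 25.4 CPM in shCont, 29.3, 28.4 and 26.03 CPM in shp16 and 27.7, 28.8 and 27.7 CPM in shp16+shATR. GCLM (ENSG00000023909, chromosome 1 from 94350761 to 94374966, minus strand), the modifier subunit, was at 28.8, 37.0 and 40.1 CPM in shCont, 50.7, 46.0 and 46.6 CPM in shp16 and 44.6, 44.4 and 49.4 CPM in shp16+shATR. Both groups with the p16 hairpin lay above shCont for GCLM, without overlap, whereas for GCLC the shCont and shp16 libraries overlapped. SLC7A11 shares part of its span with the antisense gene SLC7A11-AS1, which had 0 to 15 counts per library.

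TXNRD1 (ENSG00000198431, chromosome 12 from 104609557 to 104744061, plus strand) encodes thioredoxin reductase 1, the selenoprotein that keeps cytosolic thioredoxin reduced. Its level was 166, 222 and 232 CPM in shCont, 266, 233 and 239.7 CPM in shp16, and 127, 133 and 139 CPM in shp16+shATR. The shp16+shATR libraries were the lowest, below shCont replicate 1 as well, and the shp16 libraries the highest, although shp16 replicate 2 and shCont replicate 3 lay side by side. The pseudogene RPL18AP3 lies inside TXNRD1 on the same strand, with 72 to 165 counts against 2203 to 5130 for TXNRD1.

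SRXN1 encodes sulfiredoxin, which repairs overoxidized peroxiredoxins. It had few reads. The row that carried reads (ENSG00000271303, chromosome 20 from 627259 to 634014, minus strand) had 12 to 28 counts per library. That is 0.707, 0.822 and 0.649 CPM in shCont, 1.04, 0.711 and 0.780 CPM in shp16, and 1.61, 0.519 and 1.23 CPM in shp16+shATR. The groups overlapped throughout. The other row (ENSG00000234516) had 0 counts in all 9 libraries, and the 3 counts that such a 0 allows are 0.127 to 0.173 CPM before TMM scaling. Both rows and a readthrough gene overlap on the same strand, and how reads on overlapping genes were assigned is not stated. The level of SRXN1 is therefore uncertain.

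GPX4 (ENSG00000167468, chromosome 19 from 1103936 to 1106787, plus strand) encodes the selenoprotein that reduces lipid hydroperoxides in membranes. It was at 347, 195 and 192 CPM in shCont, 174, 182 and 184 CPM in shp16, and 220.1, 220.2 and 215 CPM in shp16+shATR. The shp16 libraries were the lowest and overlapped with neither other group. The shp16+shATR libraries lay above shCont replicates 2 and 3 and below replicate 1.

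**Figure D2:**
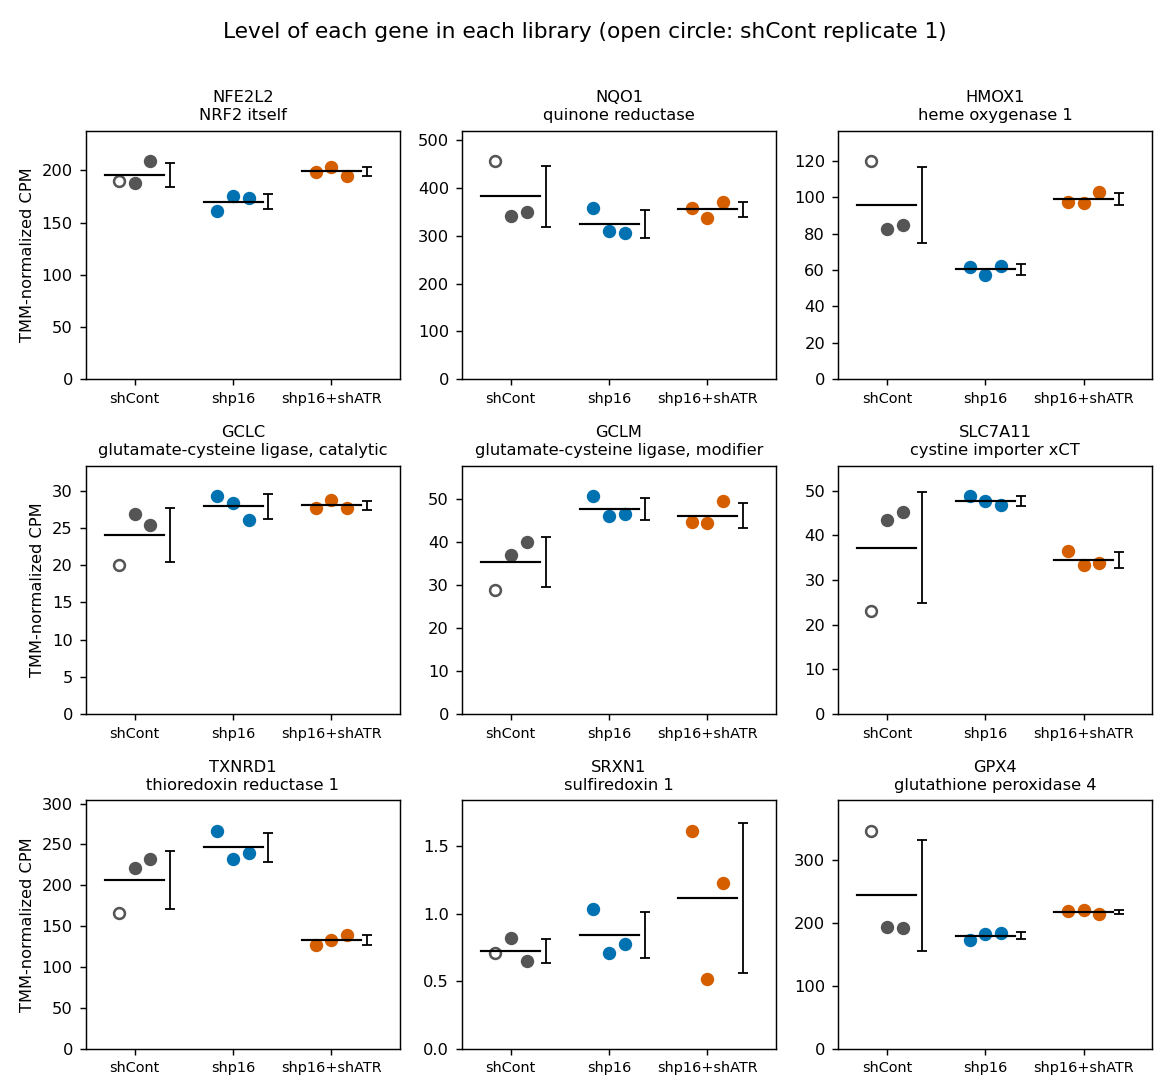
TMM-normalized CPM (y axis, from 0) of the 9 genes in each library, grouped by hairpin, with a line at the group mean and an error bar of 1 SD (n = 3 libraries). The open circle is shCont replicate 1, which is highest for GPX4 (347 CPM) and lowest for SLC7A11 (23.0 CPM). HMOX1 dips in shp16 and TXNRD1 is lowest in shp16+shATR.

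The spread of the libraries shows the same split. In shCont the SD was 36.2% of the mean for GPX4, 33.3% for SLC7A11 and 21.9% for HMOX1, but 5.88% for NFE2L2. In shp16 it was 3.03%, 2.19%, 4.76% and 4.41% for the same genes. SRXN1 had its widest spread in shp16+shATR, at 49.6%.

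Levels can be ranked between genes only per length, for which the deposited FPKM were used. GPX4 mRNA was the most abundant in every group, with means of 209, 155 and 188 FPKM in shCont, shp16 and shp16+shATR. NQO1 followed at 131, 111 and 122 FPKM. Together they stood above NFE2L2, at 68.7, 59.5 and 69.7 FPKM. HMOX1 and TXNRD1 traded places: their ranges overlapped in shCont, at means of 52.3 and 52.3 FPKM, whereas in shp16 they were at 32.9 and 61.6 FPKM and in shp16+shATR at 54.3 and 33.4 FPKM. In shp16 the range of TXNRD1 also overlapped that of NFE2L2. GCLM, at 7.30, 9.78 and 9.49 FPKM, and GCLC, at 6.36, 7.28 and 7.36 FPKM, overlapped in shCont only. SLC7A11 followed at 3.90, 4.93 and 3.58 FPKM, and SRXN1 was last at 0.270, 0.309 and 0.414 FPKM. The place of SRXN1 is as uncertain as its level, since reads on its overlapping rows may not have been assigned to it.

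The p16 hairpin was compared first, as shp16 against shCont. HMOX1 fell by 0.67 in log2 fold change (standard error 0.14, edgeR adjusted p = 0.00835), to 0.629 times its shCont level. Its group levels were 95.7 ± 20.9 and 60.3 ± 2.87 CPM (SD, n = 3 each). GCLM rose by 0.44 (standard error 0.13, edgeR adjusted p = 0.0422), to 1.35 times, from 35.3 ± 5.86 to 47.7 ± 2.57 CPM. Thus 1 of the 9 genes was called higher and 1 lower at an adjusted p under 0.05, against 7.23% and 7.59% of all genes tested. The median log2 fold change of the 9 genes was 0.21, and that of all genes tested was −0.02. Without shCont replicate 1 these medians were 0.09 and −0.01. Without replicate 1 of both shCont and shp16 they were 0.018 and 0.001.

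The other 7 genes did not pass the threshold in that comparison. NFE2L2 was at −0.20 (edgeR adjusted p = 0.181) and NQO1 at −0.24 (0.248). GPX4 had the next largest value below 0, at −0.44 with a standard error of 0.19 (edgeR adjusted p = 0.146). Among the genes of glutathione synthesis, SLC7A11 was at 0.36 and GCLC at 0.21. In the thioredoxin system TXNRD1 was at 0.25 and SRXN1 at 0.21.

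Without shCont replicate 1, HMOX1 was still lower in shp16, by 0.48 on the log2 scale (edgeR adjusted p = 0.000572). GCLM was higher by 0.30 (edgeR adjusted p = 0.0225). NFE2L2 then passed the threshold as well, lower by 0.23 (edgeR adjusted p = 0.0358). The values of the genes most displaced in that library shrank: GPX4 to −0.11, SLC7A11 to 0.10, TXNRD1 to 0.11, NQO1 to −0.10 and GCLC to 0.09, none of them past the threshold. SRXN1 was at 0.19. In that fit 1 of the 9 genes was called higher and 2 lower, beside 13.4% and 12.5% of all 16184 genes tested. HMOX1 passed the threshold in 21 of 22 alternative analyses, GCLM in 7 of 22, so that the call for GCLM rests on the analysis chosen.

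The ATR hairpin in cells that also carried the p16 hairpin was compared next, as shp16+shATR against shp16. TXNRD1 fell by 0.89 in log2 fold change (standard error 0.13, edgeR adjusted p = 0.00305), to 0.539 times its shp16 level. Its group levels were 246 ± 17.9 and 133 ± 5.86 CPM (SD, n = 3 each). HMOX1 rose by 0.72 (standard error 0.14, edgeR adjusted p = 0.0124), to 1.64 times, from 60.3 ± 2.87 to 98.9 ± 3.37 CPM. TXNRD1 and HMOX1 were the 1 gene lower and 1 gene higher of 9, against 3.49% lower and 2.73% higher among all genes tested. Since the shp16 libraries also enter the comparison with shCont, the opposite signs of HMOX1 are not independent. The median log2 fold change of the 9 genes was 0.13, beside 0.00 for all genes tested.

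TXNRD1 passed the threshold in all 21 alternatives, with values from −0.93 to −0.83. HMOX1 passed in 16 of 21. Its call was lost, with adjusted p of 0.0521 to 0.0661 from edgeR, on leaving out shp16 replicate 2 or 3 or any 1 of the 3 shp16+shATR libraries, while its log2 fold change stayed between 0.67 and 0.74.

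Of the others, SLC7A11 was at −0.47 with a standard error of 0.20 (edgeR adjusted p = 0.222), although its shp16+shATR and shp16 libraries did not overlap. NFE2L2 was at 0.23 (0.208) and GPX4 at 0.28 (0.469), again without overlap. SRXN1 was at 0.39 and NQO1 at 0.13. GCLC and GCLM were at 0.01 and −0.05, with standard errors of 0.12 and 0.13.

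The threshold in this comparison depended on shCont replicate 1 although no shCont level enters it, because the spread was estimated from all 9 libraries. Without that library edgeR's biological coefficient of variation was 0.0903 instead of 0.149. SLC7A11 then fell by 0.47 on the log2 scale (edgeR adjusted p = 0.000534), GPX4 rose by 0.28 (0.00543) and NFE2L2 rose by 0.23 (0.0269). With TXNRD1 and HMOX1, 2 of the 9 genes were called lower and 3 higher, beside 11.0% and 8.94% of all genes tested. The fold changes themselves moved by less than 0.01.

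**Figure D3:**
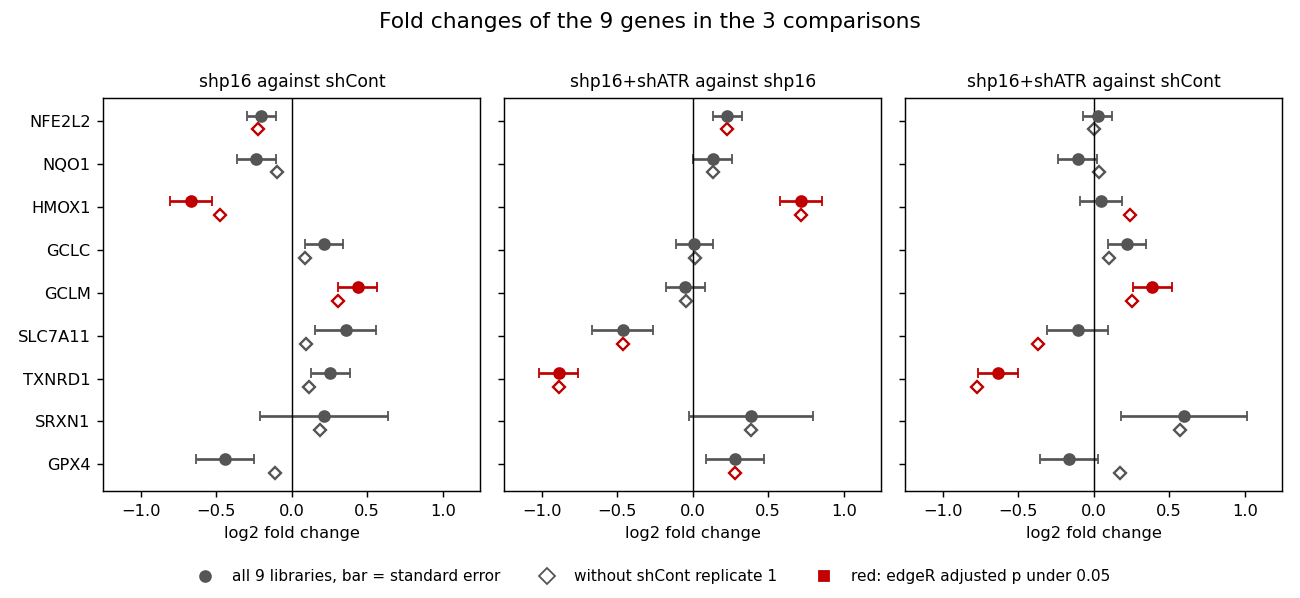
Log2 fold changes (x axis) of the 9 genes in the 3 comparisons, from edgeR. Filled circles with bars are values and standard errors from all 9 libraries, hollow diamonds are values without shCont replicate 1, and red marks an adjusted p under 0.05. In the middle panel both sets of values coincide and 5 of the diamonds are red, in the outer panels the diamonds of GPX4, SLC7A11 and HMOX1 lie away from the circles.

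Cells with both hairpins were also compared with shCont. These values share libraries with both comparisons above, and are set beside them and not used as further evidence. TXNRD1 had a log2 fold change of −0.64 (standard error 0.13, edgeR adjusted p = 0.00467), and passed the threshold in all 21 alternatives. GCLM was higher by 0.39 (standard error 0.13, edgeR adjusted p = 0.0488), and passed in 7 of 21. In all, 1 gene was called higher and 1 lower, beside 10.9% and 12.7% of all genes tested. HMOX1 was at 0.05 and NFE2L2 at 0.02, with standard errors of 0.14 and 0.10. GPX4 was at −0.16 and SLC7A11 at −0.11, with standard errors of 0.19 and 0.20.

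Without shCont replicate 1, TXNRD1 was lower by 0.78 (edgeR adjusted p = 2.36e-05) and SLC7A11 by 0.37 (0.00245), while GCLM was higher by 0.26 (0.0388) and HMOX1 by 0.24 (0.0231). These 2 genes lower and 2 higher stood beside 17.5% and 15.9% of all genes tested. GPX4 was then at 0.17, on the other side of 0 from its value with all libraries, and did not pass the threshold (edgeR adjusted p = 0.0651). NQO1 was at −0.11 with all libraries and at 0.03 without that one, GCLC at 0.22 and 0.10, NFE2L2 at 0.02 and 0.00020, and SRXN1 at 0.60 and 0.57.

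The wider pathway was read from 8 lists of 97 genes, of which 93 were tested. Calls in the lists are those of edgeR unless another tool is named. The shares of all genes tested that follow are also from edgeR and apply to each list, and none is given for DESeq2. In shp16 against shCont 10 of these were called higher and 9 lower (20.4% in all), beside 14.8% of all genes tested. In shp16+shATR against shp16 the counts were 6 higher and 3 lower (9.68%), beside 6.22%, and between shp16+shATR and shCont 15 higher and 10 lower (26.9%), beside 23.6%. Without shCont replicate 1 the totals were 38 (40.9%), 36 (38.7%) and 44 genes (47.3%), beside 25.9%, 19.9% and 33.3% of all genes tested. Genes are named from each list by adjusted p. KEAP1, BACH1, TXN, FTL, FTH1, SLC3A2 and ATF4 were added for their roles after their values were seen. Several of these calls depended on the analysis. Across the alternatives TXNIP passed in 7 of 22 and SOD2 in 13 of 22, and, in shp16+shATR against shp16, PRDX3 passed in 9, SESN2 in 9, SCD in 10, SLC11A2 in 11, SEPHS2 in 12 and MBOAT1 in 15 of 21.

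The list of genes that control NRF2 held 10 genes, with a median of −0.21 in shp16 against shCont and of 0.02 in shp16+shATR against shp16. By edgeR 1 of the 10 was called in each of these comparisons. DESeq2 called 2 lower in the first, and 2 higher and 3 lower in the second. The gene called by edgeR in both was SQSTM1, which encodes p62, an adaptor that draws KEAP1 into autophagy and is itself an NRF2 target. SQSTM1 was at 588, 488 and 492 CPM in shCont, 406, 343 and 341 CPM in shp16, and 558, 549.6 and 606 CPM in shp16+shATR. It fell by 0.52 on the log2 scale in shp16 (edgeR adjusted p = 0.0130) and rose by 0.65 in shp16+shATR against shp16 (0.00884). As for HMOX1, the shp16 libraries were the lowest and did not overlap with the others, and the opposite signs share those libraries. KEAP1 itself was at −0.14 and 0.04, and BACH1, the repressor of HMOX1, was at 0.31 and −0.67, none of them past the threshold. Without shCont replicate 1 the first values were −0.04 and 0.05, and BACH1 passed in shp16+shATR against shp16 (−0.67, edgeR adjusted p = 0.00034).

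Among 12 glutathione enzymes, 1 was called higher and 1 lower in shp16 against shCont, and 0 of 12 were called by edgeR in shp16+shATR against shp16, where 1 had an unadjusted p under 0.05 and DESeq2 also called 0. GSR, the reductase that regenerates glutathione, was at 101, 101 and 96.9 CPM in shCont, 153, 136 and 146 CPM in shp16 and 158, 157 and 162 CPM in shp16+shATR. It rose by 0.54 on the log2 scale in shp16 (edgeR adjusted p = 0.00280). GLRX, glutaredoxin, fell by 0.72 (0.00322), from 44.8 to 27.2 CPM on average.

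Of 13 genes for thioredoxin, peroxiredoxins and superoxide removal, 3 were called in shp16 against shCont. PRDX1, a cytosolic peroxiredoxin whose reduction depends on the TXNRD1 product, was at 515, 381 and 372 CPM in shCont and at 241, 254 and 249 CPM in shp16. It fell by 0.77 on the log2 scale (edgeR adjusted p = 0.00219), and by 0.61 without shCont replicate 1. SOD2, the mitochondrial superoxide dismutase, fell by 0.41 (0.0333), and TXNIP, the inhibitor of thioredoxin, rose by 0.36 (0.0349). In shp16+shATR against shp16 the 1 call was PRDX3, the mitochondrial peroxiredoxin, which rose by 0.46 (0.0442). TXN, the substrate of TXNRD1, was at −0.27 and −0.15, neither past the threshold, and its first value was −0.03 without shCont replicate 1.

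The list of other NRF2 targets held the AKR1C genes, with large changes at few reads. Of 19 tested, 2 were called higher and 5 lower in shp16 against shCont, beside 7.23% and 7.59% of all genes tested. In shp16+shATR against shp16, 0 were called by edgeR, 4 had an unadjusted p under 0.05 and DESeq2 also called 0. The lowest were the aldo-keto reductases AKR1C1, AKR1C2 and AKR1C3, which reduce steroids and carbonyls. AKR1C2 had 346, 241 and 254 counts in shCont, 7, 12 and 7 in shp16 and 2, 3 and 5 in shp16+shATR. It fell by 4.96 on the log2 scale in shp16 (edgeR adjusted p = 3.00e-07). AKR1C1 had 136, 80 and 102 counts in shCont and 18, 13 and 24 in shp16, and fell by 2.48 (0.000229). AKR1C3 had 26, 10 and 14 counts against 2, 0 and 3. These genes are closely related in sequence, AKR1C1 and AKR1C2 most of all, so the share of reads that each received is uncertain. All 3 were lower in each of the 6 libraries with the p16 hairpin. FTL, the ferritin light chain, was also lower, by 0.67 (edgeR adjusted p = 0.0287), and by 0.39 without shCont replicate 1 (0.00739). FTH1 was at −0.11, and at 0.32 without that library, past the threshold in neither fit.

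Ferroptosis genes outside the 9 were read from separate lists of defence and promotion. Of 12 defence genes 0 were called in shp16 against shCont by edgeR or DESeq2, with 2 at an unadjusted p under 0.05. In shp16+shATR against shp16 2 were called higher. SCD, which makes monounsaturated fatty acids, was at 1251, 1015 and 1016 CPM in shp16 and at 1755, 1701 and 1897 CPM in shp16+shATR, a rise of 0.71 on the log2 scale (edgeR adjusted p = 0.0361). MBOAT1, a lysophospholipid acyltransferase, rose by 0.50 (0.0252). SLC3A2, the partner of SLC7A11 in the exchanger, was at −0.29 and −0.04, neither past the threshold, and its first value was −0.07 without shCont replicate 1. Of 11 tested genes that promote ferroptosis, STEAP3, an iron reductase at 0.849 to 2.92 CPM in shCont and shp16, rose by 1.29 in shp16 (0.0159). SLC11A2, the iron transporter DMT1, rose by 0.62 in shp16+shATR against shp16 (0.0251). By edgeR these were the 1 call of 11 in each comparison. In shp16 against shCont 3 of the 11 had an unadjusted p under 0.05, all higher, and DESeq2 called 1 higher. In shp16+shATR against shp16 7 higher and 1 lower had an unadjusted p under 0.05, and DESeq2 called 2 higher. The list medians were 0.24 and 0.27. No share of all genes tested is given for the unadjusted counts.

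TXNRD1 and GPX4 contain selenocysteine, and 8 genes of its synthesis and insertion were examined. SECISBP2, which recruits the insertion machinery to selenoprotein mRNA, was at 26.2, 29.4 and 33.9 CPM in shCont, 43.8, 45.2 and 46.6 CPM in shp16 and 57.0, 59.5 and 57.3 CPM in shp16+shATR. It rose by 0.60 on the log2 scale in shp16 (edgeR adjusted p = 0.0044). SEPHS2, which makes the selenium donor, rose by 0.48 in shp16+shATR against shp16 (0.0471), the comparison in which TXNRD1 fell. By edgeR these were the 1 call of 8 in each comparison, and DESeq2 called 1 and 2 of 8 higher.

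SLC7A11 is also a target of ATF4, the factor of the amino acid and integrated stress responses, and 8 ATF4 genes were set beside it. In shp16 against shCont 4 of 8 were called higher and 0 lower by edgeR, with a median of 0.36, beside 7.23% and 7.59% of all genes tested. DESeq2 gave the same counts, and 5 of 8 had an unadjusted p under 0.05, all higher. In shp16+shATR against shp16 0 were called higher and 3 lower, with a median of −0.34, beside 2.73% and 3.49% of all genes tested. DESeq2 called 0 higher and 4 lower there, and 5 had an unadjusted p under 0.05, all lower. CHAC1, which degrades glutathione, had 24, 21 and 9 counts in shCont, 75, 117 and 130 in shp16 and 17, 30 and 20 in shp16+shATR. It rose by 2.595 on the log2 scale (edgeR adjusted p = 0.000287) and then fell by 2.24 (0.00224). ATF3 and SESN2 rose by 1.23 and 0.60 in shp16, and fell by 1.39 and 0.57 in shp16+shATR against shp16. ATF4 mRNA itself was at −0.05 and 0.03, and its first value was 0.11 without shCont replicate 1. The shp16 libraries enter both comparisons, so that opposite signs are not independent. The SLC7A11 values, 0.36 and −0.47, have the signs of this list but did not pass the threshold with all libraries. Without shCont replicate 1 the first was 0.10 and not past the threshold, and the second was −0.47 and past it (edgeR adjusted p = 0.000534).

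**Figure D4:**
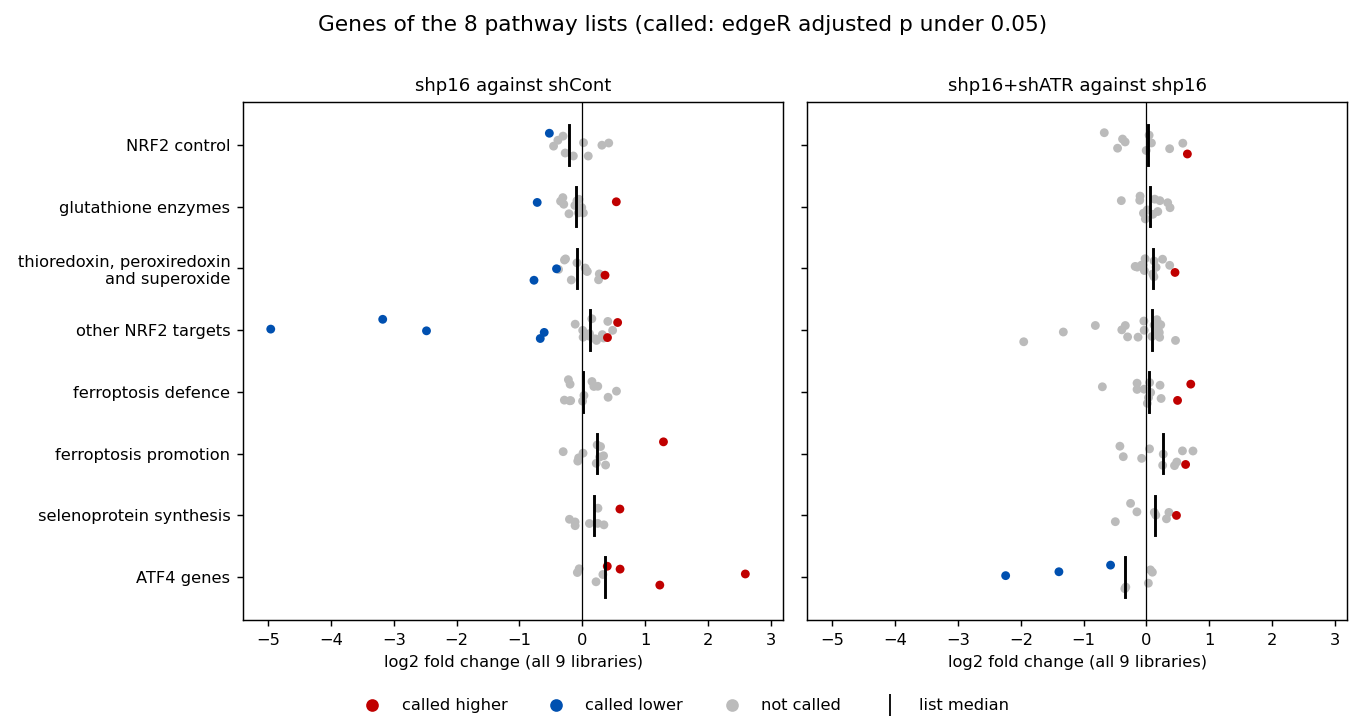
Log2 fold changes (x axis) of the tested genes in 8 pathway lists (rows), in shp16 against shCont (left) and shp16+shATR against shp16 (right). Each point is a gene, red if called higher, blue if called lower and grey if not called (edgeR adjusted p under 0.05), and black bars are list medians. AKR1C2, at −4.96, and CHAC1, at 2.595, are the outermost points on the left.

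The genes whose levels most resembled each of the 9 across the 9 libraries were sought among tested genes with a mean of at least 5 CPM, as a description. The points share the group structure and the displacement of shCont replicate 1, so high values of Pearson's r of log2 CPM are common. TXNRD1 was most like ZC3H7B (r = 0.995) and NT5DC3 (0.992), and HMOX1 most like CYB5D2 (0.980) and ENSG00000099785 (0.973). SLC7A11 was most like NUDT4 (0.996) and ZYG11B (0.990), and GCLM most like UHRF1BP1 (0.994) and RP4-594I10.3 (0.993). For GPX4 the genes were ARL3 (0.986) and DPM2 (0.982), for NQO1 UBE2M (0.989) and UFC1 (0.987), and for GCLC RP11-159G9.5 (0.986) and RNF182 (0.976). NFE2L2 reached 0.940 with OARD1 and 0.939 with C6orf120. SRXN1, with its few counts, reached 0.823 with UBXN2A and 0.813 with VTA1. None of the 9 genes was the nearest of another.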

How the data were processed

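RNA libraries of SKMEL28 cells were prepared, sequenced and processed by Novogene. The authors deposited raw read counts per gene, not normalized, and FPKM values, which equal count over gene length and library total (largest relative difference 4.22e-07 over 6 columns matched by name). The submitters' processing notes name STAR 2.6.1, DESeq2 and GRCh38 without their roles, but the deposited gene coordinates are those of GRCh37: 248 of 45342 gene identifiers share start and end with GENCODE 29 on GRCh38. The counting program and its strand setting are not given in the sources used here. The 3 shp16+shATR count columns share 1 name and are called a, b and c.

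Counts were filtered with filterByExpr, normalized by TMM and tested by quasi-likelihood in edgeR 4.0.16 (R 4.3.3), in 1 model of the 3 groups. Benjamini-Hochberg adjustment ran over all 15776 genes, with a threshold of 0.05. CPM are TMM-normalized. The fit was checked on simulated data. FPKM served for ranks and for limma 3.58.1.

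Every gene of the 9 was named. From each list, up to 3 genes with the smallest adjusted p under 0.05 were named for the p16 comparison and for shp16+shATR against shp16, plus ATR, CDKN2A and the 2 genes most like each of the 9. The 9 genes and the lists were chosen with earlier results of these data known. Alternatives were DESeq2 1.42.0, upper-quartile factors, library size only, no filter or 10 counts in every library, only the groups compared, limma on log2(FPKM + 1) or + 0.1 with and without a filter at a mean of 0.5 FPKM, the replicate number as a block, an adjusted p of 0.01 and each library left out. Leaving out shCont and shp16 replicate 1 together, and removing each library's trend with gene length by a spline of 5 degrees of freedom, were added after seeing the data. 1 promoter sequence is not reported here. Tables were handled with python 3.11.15, pandas 2.3.3, numpy 2.4.6 and matplotlib 3.10.9.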

Additional observations from a re-analysis of the deposited data

How the results depend on the processing

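Of the 9 genes, TXNRD1 kept its calls in shp16+shATR against shp16 and against shCont under every alternative run, and HMOX1 in shp16 against shCont under all but the replicate block. In shp16 against shCont, 2 of the 9 genes were called. The count was 1 with upper-quartile factors, library size only, only the groups compared, limma on FPKM (with 1 or 0.1 added, without a filter, or with a block) or an adjusted p under 0.01, was 0 with the replicate block in edgeR, and was 4 without shCont and shp16 replicate 1 together. With 1 library left out it ran from 1 to 3. In shp16+shATR against shp16, also 2, the count was 5 with only the groups compared, 6 without both libraries and 1 at 0.01, and 1 to 5 with 1 library left out. In shp16+shATR against shCont, again 2, it was 1 with library size only, no filter, only the groups compared, all 3 forms of limma on FPKM, the block or 0.01, and 5 without both libraries. With 1 library left out it ran from 1 to 4. The highest values with 1 library left out came from leaving out shCont replicate 1. In that fit 25.9%, 19.9% and 33.3% of all genes tested were called in the 3 comparisons, instead of 14.8%, 6.22% and 23.6%. Shares for the other fits are not given here, so the counts show only how far the calls depend on the fit.

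The list counts, 19, 9 and 25, ran with 1 library left out from 9 to 38, from 2 to 36 and from 13 to 44, and DESeq2 gave 17 for shp16+shATR against shp16. Signs turned for GCLC in shp16+shATR against shp16, to −0.0047 without a filter, and, for shp16+shATR against shCont without both libraries, for NFE2L2 (−0.0034), NQO1 (0.031) and GPX4 (0.17). With 1 library left out, GCLC ran from −0.040 to 0.044 in the former comparison. In the latter the ranges were −0.0048 to 0.073 for NFE2L2, −0.18 to 0.035 for NQO1, −0.050 to 0.24 for HMOX1, −0.37 to 0.056 for SLC7A11 and −0.31 to 0.17 for GPX4. The cause was not tested.

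Replicate numbers did not pair the libraries: over 9 same-numbered pairs the correlation of deviations ran from −0.27 to 0.24. Over the 18 differently numbered pairs it ran from −0.33 to 0.37. With the replicate block in edgeR, shp16 against shCont gave 0 calls among the 9 genes, HMOX1 being at −0.65 (adjusted p = 0.0915). SRXN1, at 12 to 28 counts per library, was called in none of the 3 comparisons by edgeR or by any alternative that tested it, with edgeR unadjusted p of 0.178 to 0.628.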
